A study of Mus musculus with 12 samples.

Results

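The 9 genes described here encode the CD3 chains (*Cd3d*, *Cd3e*, *Cd3g* and *Cd247*) and proteins that act beside them in T-cell-receptor signalling (*Lck*, *Zap70*, *Lat* and *Lcp2*), with *Thy1*, a surface glycoprotein of T cells and ILC2s. They were chosen by name for these roles, and they are 9 of the 24346 gene symbols with a value in each library. All 9 had a mean of at least 0.5 FPKM (a read count scaled to transcript length and library size) over the libraries and were among the 11395 genes tested. ILC2s are innate lymphoid cells that secrete type 2 cytokines. RNA of ILC2s sorted from the lungs of mice was sequenced in 12 libraries, 3 in each of 4 groups, so that the transcriptomes of both genotypes could be compared at rest and after an alarmin. The mice were WT or 6DKO, the name in the labels for mice that lack *Sema6d*, which encodes the membrane protein semaphorin 6D. They received PBS, the vehicle, or recombinant mouse IL-33, a cytokine that damaged epithelium releases and that activates ILC2s, by the intranasal route for 3 days.

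The groups were WT given PBS, 6DKO given PBS, WT given IL-33 and 6DKO given IL-33. All were of the C57BL/6 strain in the labels, and of the C57BL/6J background in the methods. Per the methods of the study, mice were 7 to 12 weeks old; the age of each group was not stated. The IL-33 dose is 50 ng in the labels and 500 ng per mouse per day in the methods. The sort took CD45-positive, ST2-positive and Thy1.2-positive cells that lacked lineage markers, and those markers included CD3ε, CD4, CD5, CD8α, NK1.1, F4/80, CD11c and Gr-1. The gate therefore selected for the protein of *Thy1* and against the protein of *Cd3e*, and the levels of their transcripts are read with that in mind. *Sema6d*, the targeted gene, had 27.5, 46.1 and 37.5 FPKM in WT PBS libraries, against 29.0, 22.9 and 19.8 FPKM in those of 6DKO PBS. Under IL-33 it had 19.7, 35.5 and 28.7 FPKM in WT, against 15.4, 13.6 and 13.8 FPKM in 6DKO libraries. Transcripts of the gene were thus still counted in 6DKO libraries, at values below those of WT under IL-33 and overlapping them under PBS.

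In a T cell, the antigen-binding chains of the receptor have no signalling part of their own and are held in a complex with the CD3 δ, ε and γ chains and the ζ chain, whose tails carry tyrosine motifs (ITAMs). Lck phosphorylates these motifs, ZAP-70 binds to the phosphorylated motifs, and ZAP-70 then phosphorylates the adaptors LAT and SLP-76, on which the enzymes of calcium and Ras signalling assemble. Mature ILC2s bear no antigen receptor, although they share a lymphoid origin and many signalling genes with T cells.

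The labelled cell type was checked against marker genes. The ILC2 list held 13 genes, 1 of which was *Ptprc*, the gene of the CD45 used in the sort, which marks leukocytes in general. All 13 were above 0 in each of the 12 libraries, with summed levels of 6615 to 10049 FPKM, led by *Id2* at 1726 to 3238 FPKM. Of the markers of T cells, *Cd4* was listed at 0 in the 12 libraries, *Cd8a* reached at most 0.393 FPKM, *Cd8b1* 0.0920 FPKM, *Cd5* 0.311 FPKM and *Foxp3* 0.0679 FPKM. The other 5 T cell markers with a value, which other lymphoid cells also use, reached 112 FPKM (*Ccr7*), 24.7 FPKM (*Cd6*), 14.0 FPKM (*Lef1*), 13.7 FPKM (*Cd28*) and 3.52 FPKM (*Cd40lg*). Symbols of the constant regions of the T-cell receptor were looked up as T cell markers and had no value in these libraries, so they were not analysed. The library of 6DKO PBS replicate 2 stood apart, since all 8 markers of NK cells or ILC1s were above 0 in it, with a summed level of 796 FPKM, led by *Gzma* at 653 FPKM. In the other libraries this sum was 19.5, 0 and 4.78 FPKM in WT PBS, 0 and 4.70 FPKM in 6DKO PBS, 0.375, 0.825 and 5.63 FPKM in WT IL-33 and 40.2, 3.39 and 0 FPKM in 6DKO IL-33. NK cells also use *Cd247*, *Lck*, *Zap70* and *Lat*, so the values of these genes are given below with that library, and their differences also without it.

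Depth is not part of FPKM values and was estimated through genes that stayed under 3 FPKM. The estimate assumes that their values rise in steps of 1 read, which was not tested in these libraries. Relative to WT IL-33 replicate 3, depth was 0.739 to 0.889 in WT PBS, 0.842 to 0.998 in 6DKO PBS, 1 to 1.39 in WT IL-33 and 0.968 to 1.12 in 6DKO IL-33 libraries. Of 3617 genes with a mean from 5 to 20 FPKM, each PBS library listed 169 to 641 at 0, against 25 to 50 for each IL-33 library. A 0 is therefore reported only as listed. The labels do not say whether a library came from 1 mouse or from pooled mice, and p-values measure the spread between these samples. In bulk RNA, fewer cells that express a gene and less RNA per cell cannot be told apart.

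Of the CD3 genes, *Cd3g* was abundant and its neighbours were not. *Cd3g*, which encodes the CD3 γ chain, was at 190, 480 and 260 FPKM in WT PBS, 269, 265 and 334 FPKM in 6DKO PBS, 305, 267 and 312 FPKM in WT IL-33 and 202, 276 and 244 FPKM in 6DKO IL-33 libraries. All 12 values lay within a 2.53-fold range, the groups overlapped in each comparison, and by its mean of 284 FPKM the gene ranked 425 of the 11395 genes tested. *Cd3e*, which encodes the ε chain that every CD3 dimer with δ or γ needs, was at 0, 3.36 and 7.63 FPKM in WT PBS, 9.81, 0 and 4.39 FPKM in 6DKO PBS, 3.15, 0.271 and 4.58 FPKM in WT IL-33 and 1.33, 1.95 and 2.17 FPKM in 6DKO IL-33 libraries. It was low throughout and listed at 0 in 2 PBS libraries, 1 of each genotype, and its groups overlapped. *Cd3d*, which encodes the δ chain, was at 0, 0 and 1.84 FPKM in WT PBS, 0.129, 0.253 and 0.655 FPKM in 6DKO PBS, 0.470, 0.495 and 1.31 FPKM in WT IL-33 and 0.292, 3.94 and 0.206 FPKM in 6DKO IL-33 libraries. Its highest value came from 6DKO IL-33 replicate 2, and its mean over the libraries of 0.799 FPKM was the lowest of the 9 genes.

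On the FPKM scale, which is per length of transcript, the mean level of *Cd3g* was 355-fold that of *Cd3d* and 88.1-fold that of *Cd3e*. Of the summed FPKM of these 3 genes, *Cd3g* made up 96.4% at least in a library, with a median of 98.9% over the 12 libraries. In the 11 libraries in which *Cd3d* or *Cd3e* was above 0, the ratio of *Cd3g* to their sum ran from 27.0 in 6DKO PBS replicate 1 to 1047 in 6DKO PBS replicate 2. No library therefore held the 3 transcripts at like levels.

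**Figure D1:**
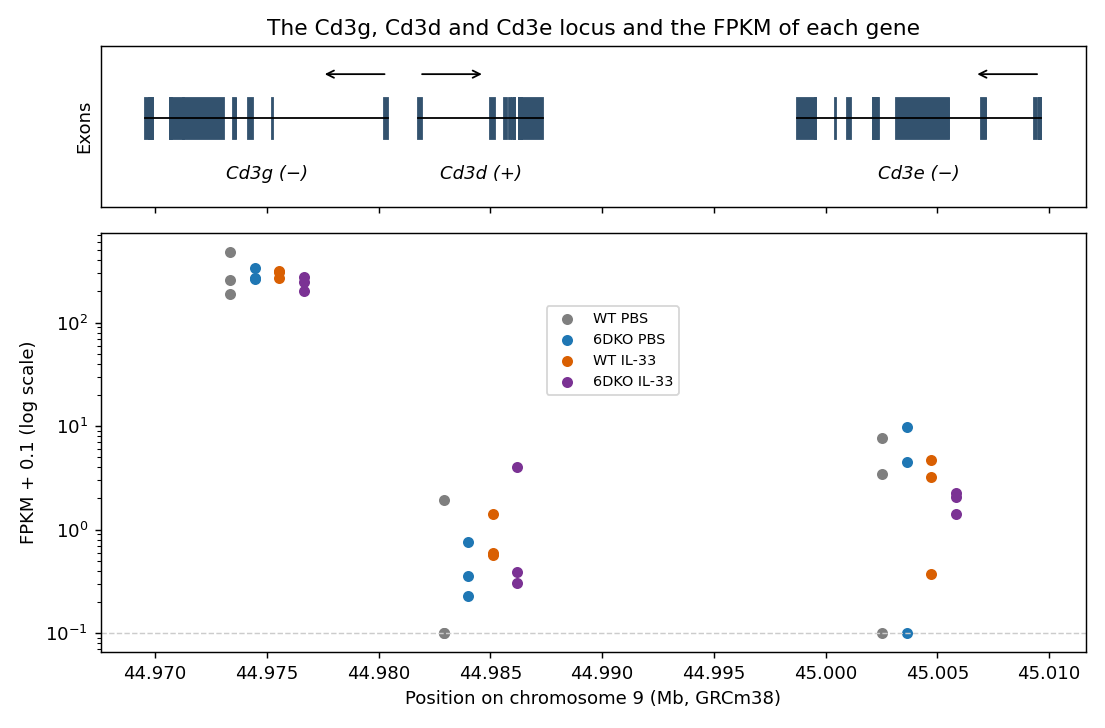
The upper panel maps annotated exons of *Cd3g*, *Cd3d* and *Cd3e* by position on chromosome 9 (Mb, GRCm38), with arrows for the direction of transcription, and the lower panel shows FPKM + 0.1 on a log axis, a point for each library, coloured by group. The 12 points of *Cd3g* lie between 190 and 480 FPKM, those of *Cd3d* at or below 3.94 FPKM and those of *Cd3e* at or below 9.81 FPKM; points on the dashed line are listed at 0.

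The 3 genes are neighbours on chromosome 9. In the GENCODE annotation of GRCm38, *Cd3g* lies at chr9:44969572-44980431 on the minus strand, *Cd3d* at chr9:44981786-44987339 on the plus strand and *Cd3e* at chr9:44998740-45009627 on the minus strand. *Cd3g* and *Cd3d* are transcribed away from each other from starts that lie 1355 bases apart, and the whole locus spans 40.1 kb. No exon of *Cd3g* or *Cd3d* overlaps that of another gene, and 3.31% of the exonic bases of *Cd3e* overlap an antisense gene. The windows around the starts of these 3 genes are shown because genes so close together differed so much in level. They come from RefSeq (GRCm38.p6) and hold 250 bases before to 50 bases after a start, chr9:44980382-44980681 on the minus strand for *Cd3g*, chr9:44981536-44981835 on the plus strand for *Cd3d* and chr9:45009562-45009861 on the minus strand for *Cd3e*. Capitals mark 2 motifs of 6 letters, searched on both strands after the levels had been seen: a GATA motif (spelled AGATAA, or else TGATAA, or else AGATAG, or else TGATAG) and an ETS motif (spelled CGGAAG, or else AGGAAG).
Cd3g: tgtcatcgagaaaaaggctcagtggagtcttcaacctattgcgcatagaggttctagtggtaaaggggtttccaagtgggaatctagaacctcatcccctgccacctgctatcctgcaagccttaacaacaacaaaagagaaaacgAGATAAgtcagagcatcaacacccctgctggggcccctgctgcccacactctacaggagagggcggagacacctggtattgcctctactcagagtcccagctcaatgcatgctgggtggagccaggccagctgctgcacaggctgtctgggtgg
Cd3d: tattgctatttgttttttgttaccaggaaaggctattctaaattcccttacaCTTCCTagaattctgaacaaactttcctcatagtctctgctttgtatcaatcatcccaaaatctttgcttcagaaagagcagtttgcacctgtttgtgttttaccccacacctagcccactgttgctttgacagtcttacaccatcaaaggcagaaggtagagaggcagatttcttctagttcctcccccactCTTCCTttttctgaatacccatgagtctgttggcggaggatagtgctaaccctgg
Cd3e: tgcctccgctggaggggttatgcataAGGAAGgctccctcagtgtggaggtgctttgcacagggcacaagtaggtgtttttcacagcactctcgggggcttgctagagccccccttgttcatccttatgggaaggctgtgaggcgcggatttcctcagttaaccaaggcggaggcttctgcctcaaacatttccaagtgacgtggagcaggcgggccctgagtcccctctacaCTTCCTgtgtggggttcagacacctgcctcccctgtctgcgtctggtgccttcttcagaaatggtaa

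The *Cd3g* window held 1 GATA match and 0 ETS matches, and the *Cd3d* and *Cd3e* windows each held 2 ETS matches and 0 GATA matches; none of these matches overlapped another. Among all 32851 promoter windows of this length, 29.8% held a GATA match and 46.5% an ETS match. Of the 9 genes, 8 had at least 1 such window, 11 in all, and *Thy1* had none in the table. A GATA match was in 2 of the 11 windows, those of *Cd3g* and *Lcp2*, and an ETS match in 9. A match is a run of letters, and binding was not measured.

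*Cd247*, on chromosome 1 (chr1:165788681-165877277, plus strand), encodes the ζ chain, which also serves NK receptors. It was at 4.89, 30.9 and 17.2 FPKM in WT PBS, 23.4, 32.1 and 3.03 FPKM in 6DKO PBS, 16.6, 18.3 and 4.88 FPKM in WT IL-33 and 13.9, 15.9 and 7.74 FPKM in 6DKO IL-33 libraries. Values spread 10.6-fold, each group except 6DKO IL-33 held a library under 5 FPKM, and the groups overlapped. The highest value was that of 6DKO PBS replicate 2, the library with NK transcripts. Annotated exons of *Pou2f1* on the opposite strand overlap 56.4% of the exonic bases of *Cd247*. *Pou2f1* had a mean of 1.27 FPKM, and since the sources name both a stranded and a strand-blind library kit, reads of the shared part cannot be assigned with certainty.

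None of the 4 CD3 genes differed between the treatments or the genotypes by the adjusted p of limma. Differences are given as log2 fold changes of FPKM + 1, a scale that understates changes of genes near 0. Between IL-33 and PBS, the difference of *Cd3g* was 0.03 (standard error 0.28; adjusted p of limma 0.979) in WT and −0.27 (standard error 0.28, adjusted p = 0.705, limma) in 6DKO. Between 6DKO and WT it was −0.30 under IL-33 (95% interval −0.90 to 0.30) and 0.00 under PBS (95% interval −0.60 to 0.60), so that a difference of more than 0.90 in either direction lay outside both intervals. With a library left out, the *Cd3g* difference between the genotypes under IL-33 ran from −0.40 to −0.18. Its change with IL-33 in 6DKO ran from −0.37 to −0.15. The intervals of the less abundant chains were wider. For *Cd3e* the difference between 6DKO and WT was −0.14 (95% interval −2.26 to 1.97) under IL-33 and 0.21 (95% interval −1.91 to 2.33) under PBS. For *Cd3d* it was 0.20 (95% interval −1.11 to 1.52) and −0.09 (95% interval −1.41 to 1.22), and for *Cd247* 0.05 (95% interval −1.78 to 1.87) and −0.02 (95% interval −1.85 to 1.80). Without 6DKO PBS replicate 2 the *Cd247* difference under PBS was −0.60 (−0.70 to 0.92 over all libraries left out in turn), and that between IL-33 and PBS in 6DKO was 0.39, against −0.19 with all libraries (−1.13 to 0.39). For *Cd3d* the treatment differences, 0.28 in WT and 0.57 in 6DKO, turned to −0.22 and −0.29 after quantile normalization and were 1.54 and 1 with a pseudocount of 0.1.

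**Figure D2:**
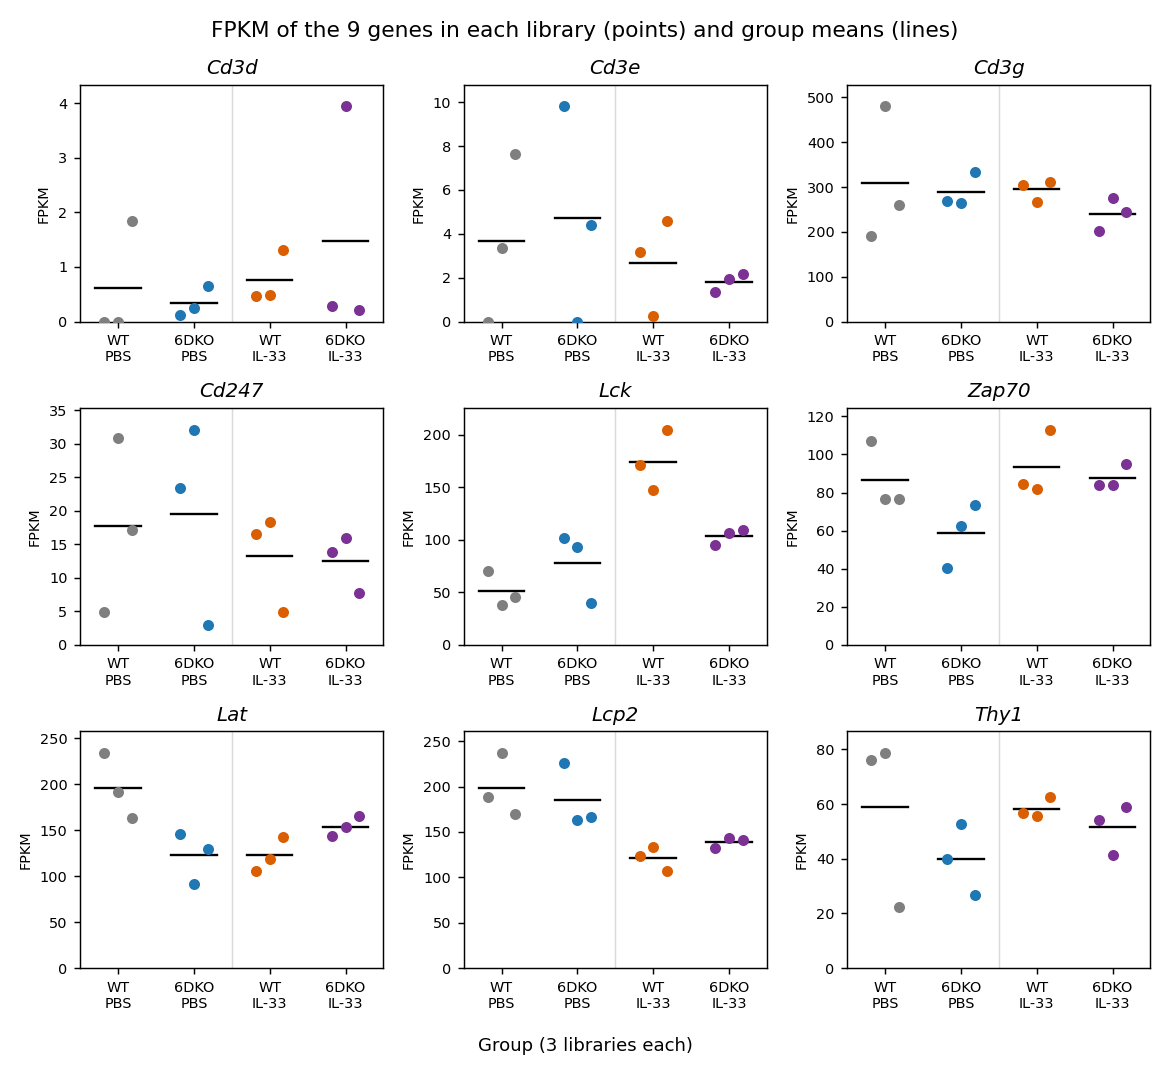
Each panel shows the FPKM of a gene (vertical axis, from 0) in the 3 libraries of each group (points) with the group mean (line). *Lck* is at 148 to 205 FPKM in WT IL-33 libraries and at most 109 FPKM in the other 9 libraries, whereas *Cd3d* stays at or below 3.94 FPKM.

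The kinases were both well expressed. *Lck*, on chromosome 4 (chr4:129548344-129573641, minus strand), encodes the Src-family kinase that starts the cascade. It was at 70.2, 37.9 and 45.3 FPKM in WT PBS, 102, 93.6 and 39.6 FPKM in 6DKO PBS, 171, 148 and 205 FPKM in WT IL-33 and 94.9, 107 and 109 FPKM in 6DKO IL-33 libraries. The 3 WT IL-33 libraries were the highest of the 12, above those of WT PBS and of 6DKO IL-33 without overlap. In WT, *Lck* rose with IL-33, from a mean of 51.1 ± 16.9 FPKM (SD, n = 3) to 175 ± 28.8 FPKM (SD, n = 3), or by 1.79 on the log2 scale (standard error 0.34, adjusted p = 0.0121, limma), with each of the 3 IL-33 libraries above each of the 3 PBS libraries. Without WT IL-33 replicate 1 this rise measured 1.80 (adjusted p = 0.0551, limma), and without WT IL-33 replicate 3 it was 1.67 (adjusted p = 0.0660, limma). The adjusted p lay between 0.00788 and 0.0660 over 11 alternatives. In 6DKO the log2 fold change was 0.51 (95% interval −0.24 to 1.25, adjusted p = 0.530, limma) and the groups overlapped. It ran from 0.08 (without 6DKO PBS replicate 3) to 0.75 when a library was left out and was 0.69 without 6DKO PBS replicate 2.

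Under IL-33, *Lck* differed between the genotypes by −0.74 on the log2 scale, 6DKO minus WT (95% interval −1.48 to 0.01, adjusted p = 1, limma). The groups did not overlap, but the difference did not pass the threshold. Under PBS the difference was 0.54 (95% interval −0.21 to 1.29, adjusted p = 0.543, limma) with overlap. It ran from 0.30 to 0.97 (without 6DKO PBS replicate 3) when a library was left out and was 0.36 without 6DKO PBS replicate 2. The responses of the genotypes to IL-33 were compared as an interaction of genotype and treatment, which was −1.28 (standard error 0.48, adjusted p = 0.877, limma). The response of *Lck* was thus not shown to differ between the genotypes.

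*Zap70*, on chromosome 1 (chr1:36761798-36782818, plus strand), encodes the kinase that binds phosphorylated ITAMs. It was at 107, 76.8 and 76.7 FPKM in WT PBS, 40.1, 62.5 and 73.3 FPKM in 6DKO PBS, 84.7, 81.8 and 113 FPKM in WT IL-33 and 84.2, 83.7 and 95.2 FPKM in 6DKO IL-33 libraries. The 3 6DKO PBS libraries were the lowest of the 12. The difference between 6DKO and WT under PBS was −0.58 (95% interval −1.14 to −0.03, adjusted p = 0.359, limma), and it ran from −0.76 to −0.34 when a library was left out (−0.65 without 6DKO PBS replicate 2 and −0.34 without 6DKO PBS replicate 1). In 6DKO the log2 fold change with IL-33 was 0.61 (standard error 0.25, adjusted p = 0.270, limma), without overlap, with 0.37 to 0.79 when a library was left out and 0.68 without 6DKO PBS replicate 2, and in WT it was 0.10 (standard error 0.25, adjusted p = 0.888, limma). Under IL-33 the genotypes overlapped, with a difference of −0.07 (95% interval −0.63 to 0.48).

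The adaptors were among the most abundant of the 9 genes. *Lat*, on chromosome 7 (chr7:126363824-126369570, minus strand), encodes the membrane adaptor that ZAP-70 phosphorylates. It was at 234, 192 and 163 FPKM in WT PBS, 146, 91.6 and 130 FPKM in 6DKO PBS, 106, 119 and 143 FPKM in WT IL-33 and 144, 153 and 165 FPKM in 6DKO IL-33 libraries. WT PBS libraries were above those of 6DKO PBS and of WT IL-33, and 6DKO IL-33 libraries were above those of WT IL-33, by 144 against 143 FPKM at the closest. Between 6DKO and WT the log2 fold change was −0.68 under PBS (95% interval −1.15 to −0.22, adjusted p = 0.236, limma) and 0.33 under IL-33 (95% interval −0.14 to 0.80, adjusted p = 1, limma). Without 6DKO PBS replicate 2, which had the lowest value, the difference under PBS was −0.49, and leaving out each library gave −0.82 to −0.49. With IL-33 the change was −0.67 in WT (standard error 0.21, adjusted p = 0.117, limma) and 0.35 in 6DKO (standard error 0.21, adjusted p = 0.490, limma), the latter from 0.15 (without 6DKO PBS replicate 2) to 0.49 when a library was left out. The interaction for *Lat* was 1.02 (standard error 0.30, adjusted p = 0.704, limma) and did not pass the threshold. A microRNA gene, *Mir7058*, lies on 75 exonic bases of *Lat* (2.71%) and has a mean of 1326 FPKM in the same files, and how reads there were assigned was not tested.

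*Lcp2*, on chromosome 11 (chr11:34046920-34092295, plus strand), encodes SLP-76, the cytosolic adaptor that joins LAT. It was at 188, 237 and 170 FPKM in WT PBS, 226, 163 and 166 FPKM in 6DKO PBS, 124, 133 and 107 FPKM in WT IL-33 and 132, 143 and 141 FPKM in 6DKO IL-33 libraries. Each of the 6 IL-33 libraries was below each of the 6 PBS libraries. The log2 fold change with IL-33 was −0.69 in WT (standard error 0.19, adjusted p = 0.0641, limma) and −0.40 in 6DKO (standard error 0.19, adjusted p = 0.346, limma), and neither passed the threshold. In WT the adjusted p was 0.0418 after quantile normalization and 0.0456 without WT PBS replicate 3, and it lay between 0.0418 and 0.233 over 11 alternatives. Between the genotypes the difference was 0.19 (95% interval −0.22 to 0.61) under IL-33 and −0.10 (95% interval −0.51 to 0.31) under PBS, with overlap in both. With a library left out, the difference under IL-33 ran from 0.11 to 0.26. The change with IL-33 in 6DKO then ran from −0.48 to −0.25. An annotated gene on the opposite strand overlaps 6.32% of the exonic bases of *Lcp2*.

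*Thy1*, on chromosome 9 (chr9:44043384-44048579, plus strand), encodes Thy-1, also called CD90, which was used in the sort. It was at 76.2, 78.7 and 22.2 FPKM in WT PBS, 39.8, 52.8 and 26.9 FPKM in 6DKO PBS, 56.6, 55.7 and 62.6 FPKM in WT IL-33 and 54.0, 41.5 and 59.1 FPKM in 6DKO IL-33 libraries. The lowest value was that of WT PBS replicate 3, and the groups overlapped in each comparison. Between 6DKO and WT the log2 fold change was −0.19 under IL-33 (95% interval −1.13 to 0.75) and −0.41 under PBS (95% interval −1.35 to 0.53, adjusted p = 0.705, limma). When a library was left out, the difference under IL-33 ran from −0.29 to −0.04. That under PBS ran from −0.99 (without WT PBS replicate 3) to −0.10 (without WT PBS replicate 2). With IL-33 the change was 0.18 in WT (adjusted p = 0.886, limma) and 0.40 in 6DKO (adjusted p = 0.721, limma), and the former turned to −0.41 without WT PBS replicate 3, while the latter ran from 0.15 to 0.62 when a library was left out.

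**Figure D3:**
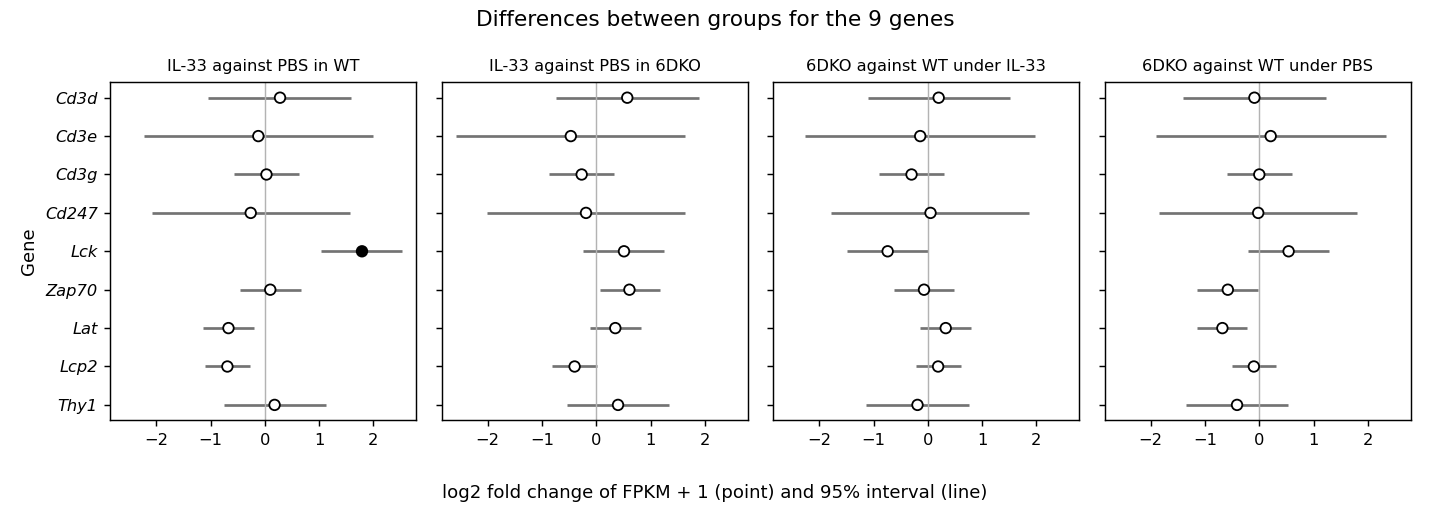
Log2 fold changes of FPKM + 1 (points, horizontal axis) with 95% intervals (lines) from limma are shown for the 9 genes (vertical axis) in 4 comparisons, filled where the adjusted p was under 0.05. The filled point is *Lck* in WT, at 1.79; intervals of *Cd3e* and *Cd247* are the widest.

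The calls among the 9 genes are given beside those over all genes tested. Between IL-33 and PBS in WT, limma called 1 of the 9 genes (*Lck*) at an adjusted p under 0.05, against 486 of 11395 genes (4.27%). At an unadjusted p under 0.05 there were 3 of the 9, against 17.6% of all genes, and the groups did not overlap for 3 of the 9, *Lck*, *Lat* and *Lcp2*, against 25.1% of all genes. In 6DKO, limma called 0 of the 9, against 2.84% of all genes. At an unadjusted p under 0.05 there was 1 of the 9, against 15.2% of all genes, and 2 of the 9, *Zap70* and *Lcp2*, did not overlap, against 22.7%. Between 6DKO and WT under IL-33, limma called 0 of the 9, against 0.00878% of all genes, which was 1 gene. At an unadjusted p under 0.05 there were 0 of the 9, against 1.83% of all genes, and *Lck* and *Lat* did not overlap, against 14.2%. Under PBS, limma called 0 of the 9, against 0.579% of all genes. At an unadjusted p under 0.05 there were 2 of the 9, against 12.9% of all genes, and *Zap70* and *Lat* did not overlap, against 8.63%. For the interaction, limma called 0 of the 9, against 0.0176% of all genes, and 2 of the 9 were at an unadjusted p under 0.05, against 5.57% of all genes. The median log2 fold change of the 9 genes with IL-33 was 0.03 in WT and 0.35 in 6DKO, and that of all genes tested was 0.16 and 0.14 (−0.04 and −0.02 after quantile normalization). The comparisons with IL-33 share libraries with those between the genotypes. The counts of all genes moved with single libraries: in WT 202, 243 and 230 genes were called without IL-33 replicates 1, 2 and 3, and in 6DKO 137, 122 and 143. Under PBS, the 66 genes called between the genotypes became 213 without WT PBS replicate 3 and 154, 145 and 143 without 6DKO PBS replicates 1, 2 and 3.

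Ordered by mean FPKM, *Cd3g* came first in each of the 4 groups, and *Cd247*, *Cd3e* and *Cd3d* came last in that order. In WT PBS, *Cd3g* (310 FPKM), *Lcp2* (198 FPKM) and *Lat* (196 FPKM) overlapped from each to the next, as did *Zap70* (86.8 FPKM), *Thy1* (59.0 FPKM) and *Lck* (51.1 FPKM), but *Lat* did not overlap *Zap70*, and *Lck* did not overlap *Cd247* (17.7 FPKM). In WT IL-33, *Lck* (175 FPKM) moved from place 6 to place 2, apart from *Cd3g* (295 FPKM) above it and *Lat* (123 FPKM) below it. In 6DKO IL-33, *Lat* (154 FPKM), *Lcp2* (139 FPKM) and *Lck* (104 FPKM) stood in that order with no overlap between neighbours, and *Lck* overlapped *Zap70* (87.7 FPKM). In 6DKO PBS, *Cd3g* (289 FPKM), *Lcp2* (185 FPKM) and *Lat* (123 FPKM) did not overlap, while *Lat*, *Lck* (78.4 FPKM), *Zap70* (58.6 FPKM) and *Thy1* (39.9 FPKM) overlapped from each to the next. *Cd3e* and *Cd3d* overlapped in all 4 groups.

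The levels of the 9 genes varied across libraries with no shared direction. Of their 36 pairs, 18 had a Pearson's r above 0 on the log2(FPKM + 1) scale over the 12 libraries, with a median of 0.01. The highest values were 0.43 for *Lat* with *Lcp2* and for *Cd3e* with *Cd3g*, and the lowest was −0.72 for *Lck* with *Lcp2*, which became 0.05 once group means were taken off. Within groups the lowest value was −0.77, for *Cd247* with *Zap70*. These libraries fall into 4 groups and differ in depth, and the values are a description. The replicates of *Lat* and *Lcp2* were close, with an SD on the log2 scale of 0.06 to 0.35 in a group. That of *Cd247* was 0.50 to 1.64, above the median of all genes tested in each group (0.66 in WT PBS, 0.70 in 6DKO PBS, 0.29 in WT IL-33 and 0.28 in 6DKO IL-33).

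Among 7342 other genes whose mean reached 5 FPKM, those most like the mean of *Cd3d*, *Cd3e* and *Cd3g* over the 12 libraries were *Mpv17* (Pearson's r = 0.87), *Dxo* (0.83), *Git1* (0.82), *Traf3* (0.81) and *Pdpk1* (0.81). Those most like *Thy1* were *Xrcc1* (Pearson's r = 0.93), *Kctd17* (0.93), *Snrpg* (0.91), *Fam49b* (0.89) and *Thyn1* (0.89). These are the highest of many values over the same 12 libraries, with shared depth and treatment, and are given as a description. The mean of the 3 CD3 genes was of log2(FPKM + 1), so the low *Cd3e* and *Cd3d* counted as much as *Cd3g*. On this scale the SD within a group was 0.23 to 1.77 for *Cd3e*, 0.28 to 1.15 for *Cd3d* and 0.12 to 0.68 for *Cd3g*.

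The other genes of the pathway were nearly all expressed beside these 9. All 37 on the list were among the genes tested. Among the most abundant were *Sla*, an adaptor that dampens receptor signalling (mean 353 FPKM), *Skap1*, an adaptor of integrin activation (283 FPKM), *Ptprc*, the CD45 phosphatase that activates Lck (263 FPKM), *Ptpn22*, a phosphatase that restrains Lck and ZAP-70 (163 FPKM), and *Dgka*, a diacylglycerol kinase (80.3 FPKM). Like *Cd3g*, *Lat* and *Lcp2*, these were present in each library, at 55.7 FPKM or more. *Themis*, which acts in thymocytes, was at most 7.32 FPKM, in 6DKO PBS replicate 2.

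Between IL-33 and PBS in WT, limma called 3 of the 37 genes, 1 higher and 2 lower, against 4.27% of all genes, and 1 of the 37 in 6DKO, higher, against 2.84% of all genes. At an unadjusted p under 0.05 there were 8 of the 37 in WT, against 17.6% of all genes, and 9 in 6DKO, against 15.2%. The groups did not overlap for 12 of the 37 in WT, against 25.1% of all genes, and for 14 in 6DKO, against 22.7%. *Ptpn22* rose in WT, from 114, 63.0 and 116 FPKM to 175, 245 and 217 FPKM (1.15 on the log2 scale, standard error 0.27, adjusted p = 0.0336, limma). In 6DKO it was at 99.8, 85.1 and 149 FPKM under PBS and 218, 236 and 234 FPKM under IL-33, without overlap (1.08 on the log2 scale, adjusted p = 0.0570, limma), and the interaction was −0.07 (adjusted p = 0.983, limma). *Malt1*, a scaffold and protease on the way to NF-κB, was at 30.2, 36.3 and 27.2 FPKM in WT PBS and 11.3, 10.5 and 5.22 FPKM in WT IL-33 libraries and fell by 1.74 on the log2 scale (standard error 0.41, adjusted p = 0.0332, limma). In 6DKO the change of *Malt1* was −0.69 (adjusted p = 0.468, limma), with overlap, and the interaction was 1.05 (adjusted p = 0.897, limma). *Trat1*, an adaptor tied to the TCR and CD3 complex, was listed at 0 in the 6 PBS libraries and was at 6.83, 10.3 and 3.60 FPKM in WT IL-33 and 1.84, 27.3 and 21.9 FPKM in 6DKO IL-33 libraries. In 6DKO this gave a log2 fold change of 3.61 (adjusted p = 0.0269, limma). The change in WT was 2.89 (adjusted p = 0.0567, limma), also without overlap, and the interaction was 0.73 (adjusted p = 0.927, limma). Over 11 alternatives the calls of *Ptpn22*, *Malt1* and *Trat1* were lost in 5, 7 and 7, with adjusted p-values up to 0.138, 0.146 and 0.256 (limma). PBS libraries listed more genes at 0 and were shallower than IL-33 libraries, except that 6DKO PBS replicate 3 was at 0.998 and 6DKO IL-33 replicate 2 at 0.968 in relative depth, and the part of this in the results was not tested.

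Between the genotypes limma called 0 of the 37 genes under IL-33, against 0.00878% of all genes, and 0 under PBS, against 0.579%. At an unadjusted p under 0.05 there was 1 under IL-33, against 1.83% of all genes, and 6 under PBS, against 12.9%. For the interaction it called 0, against 0.0176% of all genes, with 3 at an unadjusted p under 0.05, against 5.57% of all genes. The median log2 fold change of the 37 genes with IL-33 was 0.18 in WT and −0.01 in 6DKO, and between 6DKO and WT it was 0.04 under IL-33 and 0.20 under PBS, where the median of all genes tested was 0.01 and 0.00.

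Signalling genes of other receptors were mixed. *Hcst*, which encodes the adaptor DAP10, was high in each library, at 478 to 875 FPKM, above *Cd3g* throughout. *Tyrobp*, which encodes DAP12, was at 653 FPKM in 6DKO PBS replicate 2 and at most 25.9 FPKM in the other 11 libraries, and *Fcer1g* ranged from 0 to 169 FPKM. *Syk*, the relative of *Zap70*, was at most 4.45 FPKM, and *Btk* was listed at 0 in the 12 libraries. *Lat2*, a relative of *Lat*, was at 1.39, 32.6 and 15.1 FPKM in WT PBS and 102, 105 and 83.4 FPKM in WT IL-33 libraries, and rose by 3.16 on the log2 scale (standard error 0.79, adjusted p = 0.0446, limma), whereas *Lat* itself was lower in each of these IL-33 libraries. In 6DKO, *Lat2* also lay higher with IL-33, without overlap (1.62, adjusted p = 0.361, limma). There the change of *Lat* was 0.35, with overlap, so the contrast with *Lat* was seen in WT only. *Cd79b* also rose in WT (log2 fold change 4.08, adjusted p = 0.0228, limma), from at most 0.139 FPKM under PBS to 26.8, 14.4 and 12 FPKM under IL-33, while the B cell markers *Ms4a1* and *Pax5* were listed at 0. In 6DKO the change of *Cd79b* was 1.79, with overlap (adjusted p = 0.370, limma). *Cd79a*, of the same list, lay the other way in WT (−0.78, adjusted p = 0.575, limma). It was at 0, 0 and 5.05 FPKM under PBS and at most 0.0993 FPKM under IL-33.

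The summed level of the 10 T cell markers with a value was 50.3, 25.0 and 49.0 FPKM in WT PBS, 8.52, 12.1 and 24.2 FPKM in 6DKO PBS, 49.8, 63.0 and 98.8 FPKM in WT IL-33 and 79.3, 75.4 and 136 FPKM in 6DKO IL-33 libraries. The gene with the highest mean was *Ccr7*, a chemokine receptor that other cells also use, at 0 to 112 FPKM. In WT PBS replicate 1 and in 6DKO PBS replicates 1 and 2 *Cd6* was the highest instead, at 24.7, 6.83 and 9.66 FPKM. *Ccr7* rose in 6DKO with IL-33 (4.76 on the log2 scale, standard error 0.95, adjusted p = 0.0212, limma). *Cd28*, the costimulatory receptor, was at 0.0894 to 13.7 FPKM and also rose in 6DKO (log2 fold change 2.58, adjusted p = 0.0467, limma). In WT the change was 1.39 for *Ccr7* (adjusted p = 0.507, limma) and 0.16 for *Cd28* (adjusted p = 0.940, limma). The interaction was 3.38 for *Ccr7* (adjusted p = 0.880, limma) and 2.43 for *Cd28* (adjusted p = 0.852, limma). A different response of the genotypes was thus not shown. In 6DKO PBS libraries *Ccr7* was at 0.0845, 0 and 18.4 FPKM and *Cd28* at 1.34, 0.381 and 0.0894 FPKM. Of the same list in 6DKO, *Cd6* lay lower (−2.11) and *Lef1* (1.88) and *Cd40lg* (1.16) higher, without passing the threshold. The sums overlapped between treatments in WT and did not in 6DKO, and they were not tested. Of the other lists, macrophage markers summed to 420 FPKM in 6DKO IL-33 replicate 2, 177 FPKM in 6DKO PBS replicate 2 and 143 FPKM in 6DKO IL-33 replicate 3, and to at most 17.1 FPKM elsewhere. *Chil3* led in both IL-33 libraries, at 394 and 83.1 FPKM, and *Lyz2* in the PBS library, at 112 FPKM. The library with the highest *Cd3d*, 6DKO IL-33 replicate 2, was thus also that with the highest macrophage sum. Of the 8 macrophage markers, 5 were listed at 0 in it (*Adgre1*, *Csf1r*, *Mertk*, *Marco* and *Mrc1*). The part of other cells in its *Cd3d* value was not tested, and the lineage markers of the sort included F4/80 and CD11c. The sums of the remaining lists were 0 to 26.9 FPKM for B cells (led by *Cd79b*), 0 to 39.7 FPKM for eosinophils (*Ear2*, with *Epx* and *Prg2* at 0), 17.8 to 95.2 FPKM for mast cells or basophils (*Cpa3*, with *Mcpt8* and *Mcpt4* at 0), 0 to 98.6 FPKM for epithelium (*Epcam* by its mean, and *Sftpc* at 97.2 FPKM in the highest library), 1.32 to 20.9 FPKM for endothelium (*Pecam1*) and 0 to 4.51 FPKM for fibroblasts (*Col3a1*). The highest sums for eosinophils, mast cells or basophils and fibroblasts were those of 6DKO PBS replicate 2. Of the markers of these lists, *Cpa3* was lower with IL-33 in WT (−1.54 on the log2 scale, adjusted p = 0.0376, limma), where *Lck* rose. In 6DKO, *Epcam* was lower (−3.73, adjusted p = 0.0185, limma) and *Cd68*, a macrophage marker, higher (2.08, adjusted p = 0.0279, limma). *Cpa3* in 6DKO (−1.15, adjusted p = 0.142, limma) and *Epcam* in WT (−2.17, adjusted p = 0.131, limma) were also lower, both without overlap. Other markers of the same lists lay the other way in 6DKO without passing the threshold, *Sftpc* at 2.21 (2.15 in WT), *Mrc1* at −1.56 and *Marco* at −1.02. Their part in the levels of the 9 genes was not tested.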

How the data were processed

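RNA-seq was measured in 12 libraries of sorted lung ILC2s, grouped by genotype, treatment and replicate number from their labels. The authors deposited FPKM values for 24346 gene symbols, 1 file a library. Per the methods, 75-base single-end reads were mapped to mm10 (SAMtools 0.1.19, Bowtie2 2.2.3, TopHat 2.0.13) and summarised with Cuffnorm 2.2.1; the submitters' processing notes name TopHat2 2.1.1, Bowtie2 and Cuffdiff 2.2.1. The methods name a TruSeq Stranded kit and the labels name Nextera and SMART-Seq HT. The annotation was not given in the sources used here.

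From these values, log2(FPKM + 1) was fitted with limma 3.58.1 in R 4.3.3 (4 group means, 8 residual degrees of freedom, eBayes with trend) over 11395 genes whose mean reached 0.5 FPKM, with 5 contrasts, two-sided tests and Benjamini-Hochberg adjustment over all genes tested, called at an adjusted p under 0.05. The members and gene lists were chosen with earlier results of these data known, so no list was tested and no p was adjusted over a list. Of other pathway genes, those called and the 6 most abundant were named, and of marker lists the most abundant and those at 0; others were named after their values were seen, and 1 gene that this rule names is not reported here. Tables were made with scipy 1.17.1, pandas 2.3.3 and numpy 2.4.6 in Python 3.11.15, and figures with matplotlib 3.10.9. Positions are from GENCODE vM21 (GRCm38, the build called mm10) and promoter windows from RefSeq. No pair of the 12 libraries had identical values (0 of 66 pairs; highest Pearson's r 0.950). Relative depth differed 1.88-fold; counting error could not be given. The limma fit and the depth estimate were tested on simulated data, and for depth the simulated reads were whole. Alternatives were a pseudocount of 0.1, no filter, quantile normalization, array weights, a replicate block and leaving out each library in turn.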

Additional observations from a re-analysis of the deposited data

Results flagged for a closer look

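For *Lat*, the genotypes stood apart without overlap under both treatments and in opposite directions, lower in 6DKO under PBS and higher in 6DKO under IL-33. The interaction of genotype and treatment was 1.02 on the log2 scale (adjusted p = 0.704, limma) and did not pass the threshold. *Ubash3b*, which encodes a phosphatase that restrains the pathway, was higher in 6DKO under PBS and lower in 6DKO under IL-33, both without overlap, with an interaction of −1.81 (adjusted p = 0.766, limma). For *Ptprc* and for *Nfatc3*, a transcription factor downstream of calcium, IL-33 libraries were above PBS libraries in WT and below them in 6DKO, both without overlap, with interactions of −0.27 (adjusted p = 0.897, limma) and −1.11 (adjusted p = 0.880, limma). None of these 4 interactions passed the threshold. Groups lay apart in opposite directions in this way for 4 of the 46 genes of the pathway (8.70%). Over all genes tested the share was 108 of 11395 (0.948%). This is a description with no test of the list, which was chosen with earlier results of these data known. Each of the 4 genes had a narrow gap. Under IL-33 the closest libraries of the genotypes were at 143 and 144 FPKM for *Lat* and 17.1 and 17.5 FPKM for *Ubash3b*. Between treatments they were at 12.5 and 12.8 FPKM for *Nfatc3* in WT. For *Ptprc* they were at 240 and 244 FPKM in WT and 266 and 269 FPKM in 6DKO.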

How the results depend on the processing

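Of the 36 log2 fold changes of the 9 genes in the comparisons of groups, 18 turned sign under at least 1 alternative, and none of these 18 was called as reported; the cause was not tested. After quantile normalization *Cd3d* was at −0.22 in WT and −0.29 in 6DKO (IL-33 against PBS) and 0.40 under PBS (6DKO against WT), and with a pseudocount of 0.1 the last was 0.55. With that pseudocount *Cd3e* was at 0.36 in WT, 0.20 in 6DKO and 0.08 between the genotypes under IL-33. With array weights *Cd247* was at 0.16 in 6DKO and *Cd3e* at −0.21 under PBS.

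Leaving out 1 library at a time gave these ranges. For IL-33 against PBS in WT they were −0.99 to 0.56 (*Cd3e*), −0.27 to 0.40 (*Cd3g*), −0.94 to 0.29 (*Cd247*), −0.04 to 0.26 (*Zap70*) and −0.41 to 0.48 (*Thy1*), and in 6DKO −0.09 to 0.93 (*Cd3d*), −1.45 to 0.27 (*Cd3e*) and −1.13 to 0.39 (*Cd247*). For 6DKO against WT under IL-33 they were −0.46 to 0.56 (*Cd3d*), −0.78 to 0.28 (*Cd3e*), −0.50 to 0.35 (*Cd247*) and −0.16 to 0.07 (*Zap70*). Under PBS they were −0.34 to 0.41 (*Cd3d*), −0.66 to 1.19 (*Cd3e*), −0.30 to 0.37 (*Cd3g*), −0.70 to 0.92 (*Cd247*) and −0.25 to 0.03 (*Lcp2*).

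Of the 9 genes, 2 were called in WT after quantile normalization (*Lck* and *Lcp2*) and 0 to 2 when a library was left out, with *Lck* not called without WT IL-33 replicate 1 or 3. Of the 37 other pathway genes, 3 were called in WT, against 1 with array weights, 1 with the replicate block and 0 to 5 with a library left out. In 6DKO 1 was called, against 2 with no filter, 0 after quantile normalization, 0 with array weights and 0 to 2 with a library left out, and under PBS 0 to 1 were called between the genotypes with a library left out.

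Over all genes, the 486 called in WT became 202 to 600 and the 324 in 6DKO 122 to 476 with a library left out. Under IL-33 the 1 gene called between the genotypes became 2 with the pseudocount of 0.1, 0 after quantile normalization, 55 with array weights and 0 to 3 with a library left out. Under PBS the 66 became 33 with no filter, 36 after quantile normalization, 1 with array weights and 78 to 213 with a library left out. For the interaction the 2 became 5 with the pseudocount of 0.1 and 0 to 25 with a library left out. The cause was not tested.

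With a replicate block, 361 genes were called in WT, 218 in 6DKO, 1 under IL-33, 15 under PBS and 1 for the interaction. Samples of 1 number share only that number: over 12 pairs of them, correlations of the values left after group means were −0.05 to 0.03, with 0 over 0.1. Counting error could not be given for values near 0, such as those of *Cd3d* and *Cd3e*.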
